A study of Mus musculus with 24 samples.

Results

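The comparison described here is between mouse embryonic stem cells (mESC) labelled as Htt knockout (KO) and wild-type (WT) mESC. It rests on 4 of the 24 libraries of the series, 2 labelled KO and 2 labelled WT, chosen by genotype and cell type from the labels. The series holds 12 mESC libraries and 12 libraries of neural progenitor cells (NPC) made from them, each cell type with KO, WT and 4 heterozygous knock-in lines of Htt with 20, 50, 92 or 111 CAG repeats (Q20, Q50, Q92 and Q111), 2 libraries a genotype. For the third line, the titles give 92 repeats and the growth protocol another length. The mESC were grown, per the labels, with leukaemia inhibitory factor and serum on gelatin and a layer of irradiated mouse embryonic fibroblasts, which can add RNA of their own. The labels do not give the knockout allele, whether the KO cells are 1 clone, the parent line of KO and WT, or the sex of the cells. The series text calls the 2 libraries of a genotype biological samples. Because nothing says that they are separate clones, a p-value measures the spread between these samples and does not cover differences between clones.

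Htt encodes huntingtin, a large scaffold protein that binds vesicle motors, endocytic proteins and transcriptional regulators. It is required in the early mouse embryo, and an expanded CAG tract in its first exon causes Huntington's disease. Embryonic stem cells without huntingtin are used to ask which genes depend on it before neurons form. Embryonic stem cells in general keep Pou5f1 and Nanog on, and keep many germline genes silent by DNA methylation of their promoters. Cultured mouse embryonic stem cells are also known to gain or lose chromosomes.

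Values are normalised read levels on a scaled counts-per-million (CPM) scale, and 1 read was worth 0.0133 to 0.0177 in the 4 KO and WT libraries. The reads recovered from the deposited values numbered 61807627 and 59036760 in WT 1 and WT 2, and 73413219 and 81502284 in the libraries labelled KO 1 and KO 2. Differences are KO minus WT on log2(value + 1), a scale on which genes near or below 1 change less than their ratio does. The pluripotency factor Pou5f1 stood at 421 and 880 in WT and at 359 and 813 in KO. Nanog, its partner, stood at 284 and 433 in WT and at 279 and 422 in KO. Both defining markers of the labelled cell type were therefore high in all 4 libraries. The summed level of the 19 fibroblast genes in the table was 403 and 312 in WT, 977 and 418 in KO, and 636 to 904 in the knock-in lines. The fibroblast collagen Col1a2 stood at 0.808 and 1.95 in WT and at 0.920 and 2.60 in KO, against 17.5 to 31.4 in the knock-in lines. Fn1, fibronectin, which stem cells also make, stood at 925 in KO 1 and 350 in KO 2 and accounted for most of the KO sum. Other members of the list were lower in KO: Pdgfra, a growth factor receptor, stood at 28.0 and 18.1 in WT and at 9.69 and 7.72 in KO, and Thy1, a surface protein, at 9.66 and 11.3 in WT and at 4.67 and 3.66 in KO. Col3a1, another collagen, was higher, at 0 and 0.142 in WT and at 2.72 and 0.491 in KO (difference 1.14), against 2.32 to 13.6 in the knock-in lines. Of the 18 fibroblast genes tested, 12 were above 0 and 6 below, against 51.0% of all tested genes above 0. Their median difference was 0.12. At an unadjusted p under 0.05, 2 were lower and 1 higher, against 4.58% and 6.99% of all tested genes, and none was called. The effect of fibroblast RNA on the results below was not tested.

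Htt itself was not lower in both libraries labelled KO. The gene (ENSMUSG00000029104, GRCm38 chromosome 5, 34761740 to 34912534, plus strand, 67 exons) stood at 124 and 113 in WT 1 and WT 2, at 139 in KO 1 and at 68.5 in KO 2. The 8 knock-in libraries ranged from 91.5 to 152. KO 2 was thus below every other mESC library, while KO 1 was above both WT libraries. The KO minus WT difference was -0.28 (SE 0.21), with an adjusted p of 0.678 in limma, and without KO 2 it was 0.11. A value summed over the whole gene does not separate an intact transcript from one with a deletion, and the deleted part is not known here, so this level does not check the knockout. All directions below rest on the libraries as labelled KO. In NPC, whose table was scaled separately, Htt stood at 137 and 177 in WT and at 100 and 94.9 in the libraries labelled KO.

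Of 13916 genes tested, 16 were called at an adjusted p under 0.05 (limma with the replicate number as a block, Benjamini-Hochberg adjustment), which is 0.115% of the genes tested. Of these, 9 were higher and 7 lower in KO. They included subunits of 2 protein machines of the endoplasmic reticulum, which were higher, and 3 genes of the germline and 3 of the X chromosome, which were lower. The median difference of all tested genes was 0.01, with 51.0% of them above 0, and 434 genes differed at least 2-fold on the log2(value + 1) scale. At an unadjusted p under 0.05, 973 genes (6.99%) were higher and 637 (4.58%) lower. The spread behind these tests was shared by all 12 mESC libraries. Without the block, limma called 2 genes, Spcs3 and Mmgt1. Fitted to the 4 KO and WT libraries alone, limma with the block called 0 genes (1327 at an unadjusted p under 0.05), so the calls rest on the spread of the knock-in lines as well. Leaving out KO 1, WT 1 or WT 2 gave 5, 8 and 9 calls, of which 4 each time were among the 16, and leaving out KO 2 gave 21, of which 5 were. Over 18 alternative settings, Spcs3 and Mmgt1 kept their calls in 16, Klhl13 in 14, Efhc2 in 13 and B3glct in 12, and the other 11 genes in 3 to 9.

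**Figure D1:**
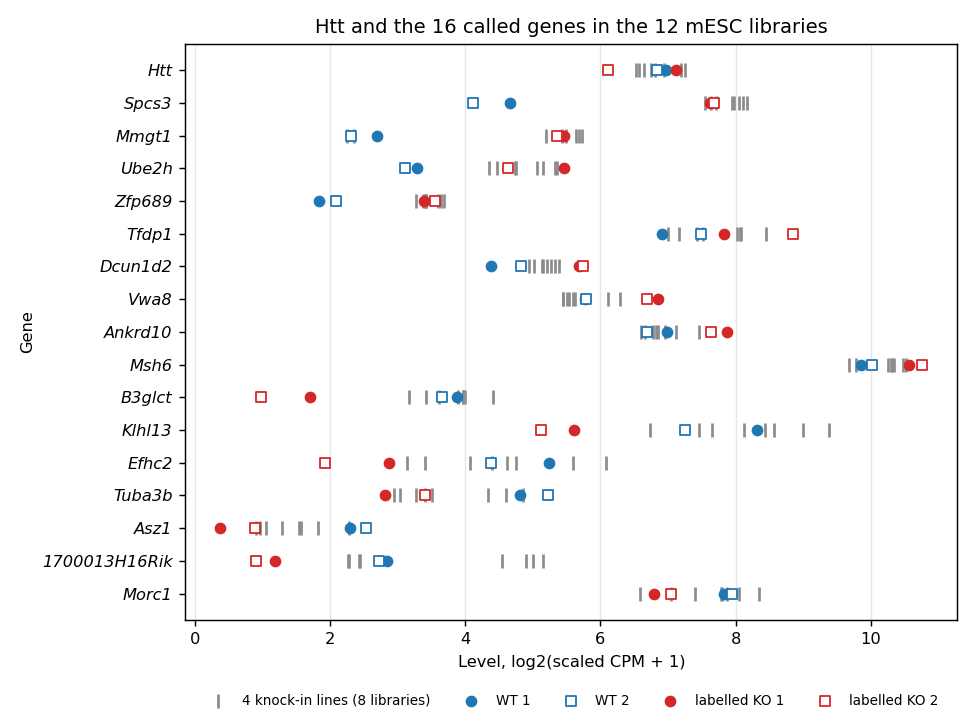
Levels of Htt and the 16 called genes in the 12 mESC libraries, on the log2(scaled CPM + 1) axis; filled symbols are the first and open squares the second library of WT (blue) and of the libraries labelled KO (red), and grey ticks are the 8 knock-in libraries. For Spcs3, Zfp689 and Ube2h the 2 WT libraries stand below all knock-in libraries, while for Klhl13, B3glct and Efhc2 the 2 KO libraries do.

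Among the called genes, the 2 largest rises were in genes of protein entry into the endoplasmic reticulum. Spcs3, a subunit of the signal peptidase complex, which cuts signal peptides from new secretory proteins, stood at 24.3 and 16.3 in WT and at 196 and 204 in KO. That is a rise of 3.26 (SE 0.15, adjusted p 0.000583), or 9.61-fold. The knock-in lines ranged from 186 to 286, so the WT libraries, not the KO libraries, stood apart from the other mESC lines. In NPC, Spcs3 stood at 105 and 139 in WT and at 145 and 253 in KO. Libraries of the same genotype disagreed there: Q20 stood at 109 and 12.8, Q50 at 195 and 13.7 and Q111 at 25.3 and 338. Spcs3 lies on chromosome 8, 54520433 to 54529998. Mmgt1 encodes a subunit of the endoplasmic reticulum membrane complex (EMC), which inserts membrane proteins. It stood at 5.49 and 3.95 in WT and at 42.9 and 40.2 in KO, a rise of 2.91 (SE 0.17, adjusted p 0.00115). The 2 Q50 libraries were as low as WT, at 3.75 and 4.10, and the other 6 knock-in libraries ranged from 35.8 to 51.9. Both rises held when each of the 4 libraries was left out in turn.

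Of the 15 subunits of signal peptidase and EMC, these 2 were called, against 0.115% of all tested genes. The list joins the 2 complexes that hold these genes and was written with earlier results known, so this count is no separate result. The median difference of the 15 was 0.06. Spcs2, which sits beside Spcs3 in signal peptidase, stood at 148 and 125 in WT and at 110 and 49.6 in KO, a difference of -0.87 that did not pass (adjusted p 0.374). Spcs1, another subunit, differed by 0.02, and the 2 forms of the catalytic subunit, Sec11a and Sec11c, by 0.10 and -0.37. Among the EMC subunits, Emc1, Emc2, Emc3 and Emc4 differed by -0.02 to 0.10, Emc7 and Emc9 by -0.20 and -0.26, and Emc8 and Emc10 by 0.28 and 0.33, and none of these passed. Emc6 stood at 11.3 and 8.11 in WT and at 52.2 and 13.5 in KO, and its difference of 1.39 (SE 1.16, adjusted p 0.711) rested on KO 1.

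Among the called genes, 3 encode parts of the ubiquitin system, a grouping made after their values were seen, and 2 of them rose while 1 fell. Ube2h, a ubiquitin-conjugating enzyme, stood at 8.75 and 7.61 in WT and at 43.3 and 23.7 in KO, a rise of 1.85 (SE 0.23, adjusted p 0.0498). Its knock-in values of 19.5 to 39.9 again left WT apart, and its call held in 3 of 18 alternative settings. In NPC, Ube2h stood at 28.2 and 197 in Q20 and at 20.8 and 170 in Q50, so libraries of the same genotype disagreed. Dcun1d2, which helps to attach NEDD8 to cullin ubiquitin ligases, stood at 19.8 and 27.5 in WT and at 50.4 and 52.3 in KO, a rise of 1.11 (SE 0.14, adjusted p 0.0498), and its call held in 4 of 18. Klhl13, a substrate adaptor of the cullin 3 ligase encoded on the X chromosome, stood at 317 and 151 in WT and at 47.6 and 34.0 in KO. It fell by 2.41 (SE 0.14, adjusted p 0.00115), and its KO values were below all 8 knock-in libraries, which ranged from 105 to 666. The fall held when each of the 4 libraries was left out in turn.

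The other rises were in regulators of transcription, DNA repair and mitochondria. Zfp689, a zinc finger protein, stood at 2.59 and 3.26 in WT and at 9.49 and 10.7 in KO, a rise of 1.51 (SE 0.16, adjusted p 0.0253), with knock-in values of 8.63 to 11.8. Tfdp1, the dimer partner of the E2F cell cycle factors, stood at 119 and 178 in WT and at 226 and 462 in KO, a rise of 1.14 (SE 0.14, adjusted p 0.0484). Ankrd10, an ankyrin repeat protein, stood at 126 and 102 in WT and at 232 and 198 in KO, a rise of 0.91 (SE 0.11, adjusted p 0.0498). Msh6, which recognises mismatched bases in DNA, stood at 929 and 1031 in WT and at 1512 and 1735 in KO. It rose by 0.73 (SE 0.08, adjusted p 0.0442), and both KO values were above all 8 knock-in values. Vwa8, a mitochondrial ATPase, stood at 53.8 and 54.5 in WT and at 115 and 102 in KO, a rise of 0.99 (SE 0.12, adjusted p 0.0484), also above all knock-in values.

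B3glct was low in the KO libraries of both cell types. It encodes the glucosyltransferase that completes an O-linked sugar on thrombospondin repeats, and lies on chromosome 5, 149678230 to 149762599. In mESC it stood at 13.7 and 11.6 in WT, at 2.28 and 0.981 in KO and at 8.01 to 20.2 in the knock-in lines. The fall was 2.42 on the log2 scale (SE 0.20, adjusted p 0.0102). In NPC it stood at 36.7 and 45.5 in WT and at 5.13 and 7.44 in KO, a difference of -2.54. The mESC call was lost without KO 1 (adjusted p 0.0627) and without WT 2 (adjusted p 0.0807).

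Of the 4 called genes on the X chromosome, 3 fell. Beside Klhl13 these were Efhc2, an EF-hand protein, at 37.0 and 19.9 in WT and 6.33 and 2.81 in KO, and 1700013H16Rik, at 6.18 and 5.63 in WT and 1.29 and 0.875 in KO. The falls were 2.41 for Efhc2 (SE 0.21, adjusted p 0.0102) and 1.74 for 1700013H16Rik (SE 0.16, adjusted p 0.0169). All 3 genes varied among the knock-in lines. Efhc2 ran from 7.86 in a Q50 library to 66.7 in a Q111 library, and 1700013H16Rik was 22.3 to 34.4 in the Q20 and Q111 libraries and 3.83 to 4.46 in Q50 and Q92. Of 519 X-linked genes tested, 4 were called, against 0.115% of all tested genes. At an unadjusted p under 0.05, 55 X-linked genes were lower and 18 (3.47%) higher, against 4.58% and 6.99% of all tested genes. The median difference of the 348 X-linked genes with a mean of at least 5 was -0.06. Levels of Y-linked genes were measurable in every KO and WT library. Eif2s3y, a translation factor, stood at 29.3 and 19.5 in WT and at 43.6 and 48.3 in KO (difference 0.91, adjusted p 0.140). Of 4 tested genes of the sex chromosome list (Xist, Tsix and Y-linked genes), 3 were higher at an unadjusted p under 0.05. None was called, and the median was 0.62. The summed level of the list was 71.7 and 56.5 in WT and 108 and 104 in KO. The knock-in libraries ranged from 77.3 to 240, so both WT libraries lay below them.

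Set against the knock-in lines, 9 of the 16 called genes had both KO libraries beyond the range of all 8 knock-in libraries, 5 had both WT libraries beyond it, and 2 of these genes, Asz1 and Dcun1d2, had both. For 4 genes (Mmgt1, Tfdp1, Tuba3b and Morc1) neither group lay wholly beyond that range. These counts describe genes that were called for a KO and WT difference, a choice that favours values beyond the range. The same share over all tested genes is not given here, so the counts are no separate result. Which of the 2 groups departs from the others differs from gene to gene. Annotated genes on the same strand overlap Mmgt1, Klhl13, Ankrd10, Dcun1d2 and Vwa8, and strand would not separate their reads. Annotated genes on the opposite strand overlap Spcs3, Efhc2, Zfp689, Msh6 and Vwa8. The use of strand in the counting is not given in the sources used here, so reads of such partners cannot be told apart.

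Some genes with larger differences did not pass, and several of these also varied widely among the knock-in libraries. Sptssa, a subunit of the enzyme that starts sphingolipid synthesis, stood at 39.1 and 26.1 in WT and at 0.151 and 0.0265 in KO, a difference of -4.92 (SE 0.66, adjusted p 0.0521). In the knock-in lines it was 17.5 to 33.8 in 7 libraries but 2.54 in Q50 2. Hist1h2bp, a histone gene, stood at 236 and 278 in WT and at 3.78 and 0.239 in KO, and the second Q111 library was also near 0, at 0.0384. It is 1 of a family of near-identical copies, so its reads are uncertain. Trmt10c, a mitochondrial tRNA methyltransferase, stood at 101 and 107 in WT and at 7.63 and 8.83 in KO (adjusted p 0.103). Its Q50 libraries were also low, at 14.9 and 12.4, and so was Q20 1 at 12.4, while Q20 2 stood at 63.4. The differences were 3.80 for Taf7, a subunit of the general transcription factor TFIID, 3.59 for Dpm3, of dolichol-phosphate mannose synthesis, 4.53 for Gm42715, -2.92 for AI464131 and 2.64 for Champ1, a zinc finger protein of chromosome segregation, with adjusted p-values of 0.202 to 0.244.

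A large part of the smaller rises lay on 2 chromosomes. This was found after the values were seen. Chromosomes 1 and 8 held 11.0% of the tested genes and 406, or 41.7%, of the genes that were higher at an unadjusted p under 0.05. On chromosome 1, 215 of 781 tested genes (27.5%) were higher at that level, and none was called. On chromosome 8 the count was 191 of 746 (25.6%), and 4 were called, all of them higher. On the other 18 chromosomes the share ran from 3.18% to 11.6%, against 6.99% over all genes.

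The shift was spread along both chromosomes. Among genes with a mean of at least 5, the median difference was 0.32 over 593 genes of chromosome 1, or 1.24-fold, and 0.30 over 579 genes of chromosome 8, or 1.23-fold. On the other 18 chromosomes, the medians lay between -0.06 and 0.06. In windows of 10 Mb, all 20 windows of chromosome 1 had a median above 0, from 0.11 to 0.53. All 13 windows of chromosome 8 did too, from 0.17 to 0.80. Under all of the alternative scalings, filters and left-out libraries the medians stayed above 0, at 0.29 to 0.34 for chromosome 1 and 0.25 to 0.32 for chromosome 8.

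**Figure D2:**
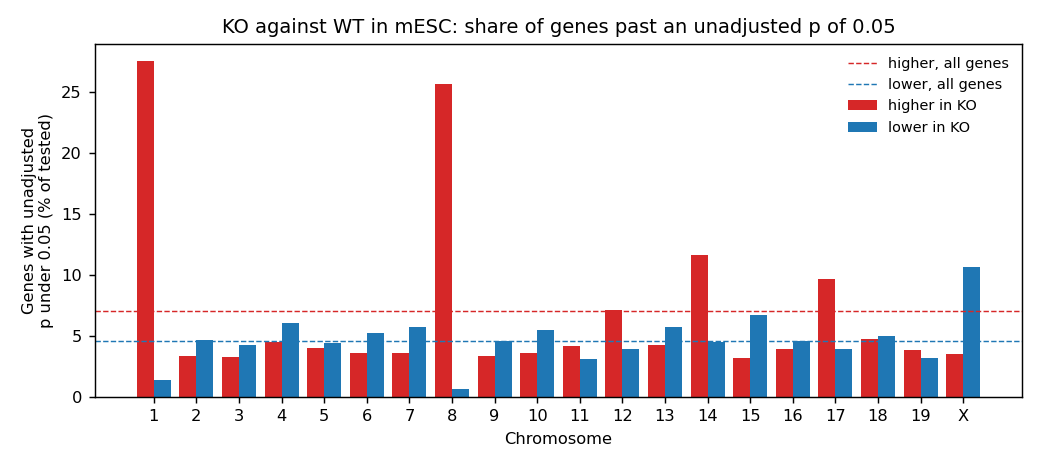
Share of tested genes per chromosome that were higher or lower in KO at an unadjusted p under 0.05, in percent of the genes tested on that chromosome. Chromosomes 1 (27.5% higher) and 8 (25.6% higher) stand above the other 18, which reach at most 11.6%.

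The 2 chromosomes differed in which libraries departed from the rest. Taking each gene relative to its mean in the 8 knock-in libraries, the chromosome 1 median was 0.47 and 0.41 in KO and 0.10 and 0.08 in WT. The Q50 libraries were also high, at 0.31 and 0.27, and the other 6 knock-in libraries were between -0.12 and -0.06. On chromosome 8 the medians were -0.46 and -0.33 in WT, -0.13 and -0.07 in KO and -0.05 to 0.05 in all 8 knock-in libraries. Here the WT libraries stood below the rest, and the KO libraries lay between WT and the knock-in lines. Copy number was not measured, and DNA dosage and regulation of many genes cannot be told apart from RNA alone. In NPC the same medians differed between KO and WT by 0.50 on chromosome 8 and by 0.15 on chromosome 1, and by -0.01 to 0.06 on the other 18 chromosomes.

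**Figure D3:**
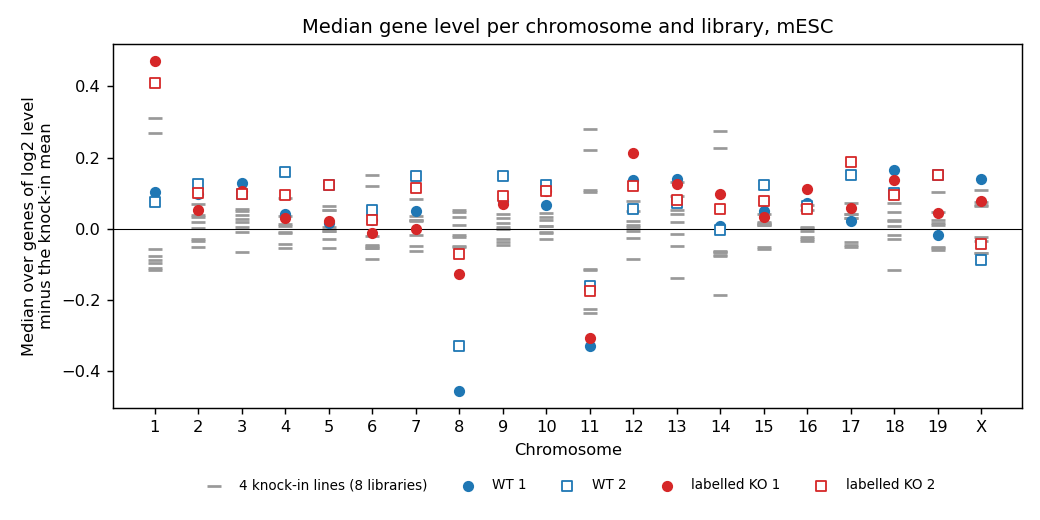
Median over genes of the log2(value + 1) level relative to the mean of the 8 knock-in libraries, per chromosome and mESC library (genes with a mean of at least 5); grey dashes are knock-in libraries, blue is WT and red the libraries labelled KO. On chromosome 1 the KO libraries are highest (0.47 and 0.41), and on chromosome 8 the WT libraries are lowest (-0.46 and -0.33).

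Of 264 windows of 10 Mb with at least 5 genes, 5 had a median difference of at least 0.5, all 5 higher in KO, and they formed 4 stretches. On chromosome 8 between 10 and 20 Mb, 32 of 34 genes were above 0, 24 of them at an unadjusted p under 0.05, with a median of 0.80 (1.74-fold). This stretch held 3 of the called genes, Ankrd10, Tfdp1 and Dcun1d2, and Champ1. Its library medians were 0.43 and 0.54 in KO, above the knock-in libraries at -0.13 to 0.15, and -0.35 and -0.22 in WT. On chromosome 17 between 80 and 90 Mb, 34 of 34 genes were above 0, with a median of 0.64, and the stretch held the called gene Msh6. There the Q92 libraries were low (-0.35 and -0.46), as WT was (-0.21 and -0.29).

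On chromosome 14 between 90 and 110 Mb, 17 of 18 genes were above 0, with a median of 0.83 (1.78-fold). The library medians were 0.63 and 0.60 in KO and 0.70 and 0.63 in Q50, against -0.12 and -0.15 in WT. On chromosome 1 between 110 and 120 Mb, 11 of 12 genes were above 0, with a median of 0.53, and here too Q50 was high (0.61 and 0.50). When every gene was taken relative to its own window, the differences of the called genes in these stretches became smaller. They were 0.09 for Ankrd10, 0.32 for Tfdp1, 0.28 for Dcun1d2 and 0.14 for Msh6, and none of these 4 was called. The stretches were chosen for a high median, and this step removes that median. The smaller differences therefore follow from the choice and are no separate result. Spcs3, on chromosome 8 but outside these stretches, kept a difference of 2.96 (adjusted p 0.000202). Relative to windows 7 genes were called and relative to whole chromosomes 8, all of them among the 16. These 2 centrings, the window size and the limits of 5 genes and 0.5 were chosen after seeing the data.

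**Figure D4:**
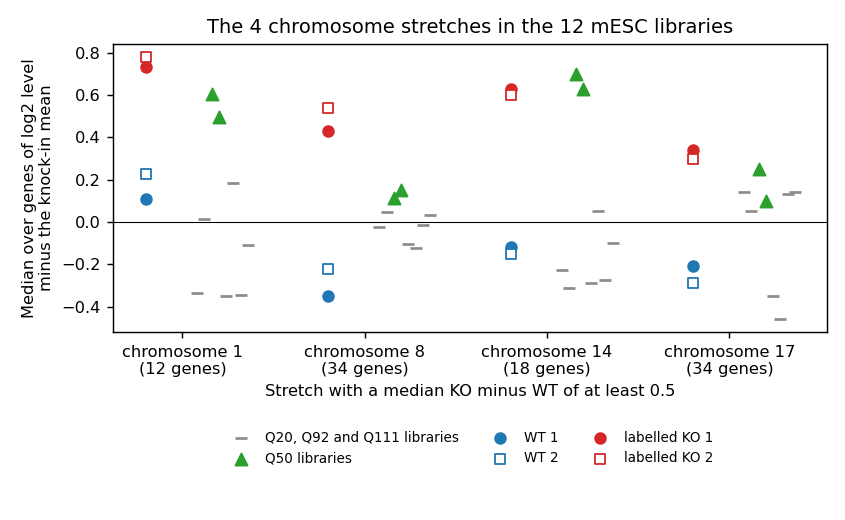
Median over the genes of each of the 4 stretches of the log2(value + 1) level relative to the mean of the 8 knock-in libraries, for the 12 mESC libraries; red is KO, blue WT, green triangles Q50 and grey dashes the Q20, Q92 and Q111 libraries. KO is above WT in all 4 stretches, which were chosen by the size of that difference. The Q50 libraries lie with KO in the stretches of chromosomes 1 and 14.

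Of the 7 genes that fell, 3 are known for roles in the germline. Asz1, which acts in the piRNA pathway of male germ cells, stood at 3.94 and 4.82 in WT and at 0.302 and 0.862 in KO, and fell by 1.78 (SE 0.17, adjusted p 0.0169). Tuba3b, an alpha-tubulin of the testis, stood at 27.2 and 36.6 in WT and at 6.07 and 9.64 in KO, and fell by 1.91 (SE 0.23, adjusted p 0.0484). Morc1, which silences transposons in the male germline, stood at 226 and 247 in WT and at 110 and 131 in KO, and fell by 0.97 (SE 0.12, adjusted p 0.0498). For Asz1 both WT values lay above and both KO values below the knock-in range of 0.885 to 3.88, while both groups of Morc1 lay inside theirs (95.4 to 323). Neither Tuba3b nor Morc1 stands on the germline list used below, and they were grouped here after their values were seen.

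That list held 16 genes known to be silenced by promoter methylation in other tissues, all of them tested. Asz1 was the 1 gene of the list called, against 0.115% of all tested genes. At an unadjusted p under 0.05, 7 were lower and 1 higher, against 4.58% and 6.99% of all tested genes, and the median difference was -0.43, against 0.01 over all genes. The difference was below 0 for 12 of the 16, against 6814 of the 13916 tested genes. On untransformed values, the KO mean was below the WT mean for 13. Both KO libraries were below all 8 knock-in libraries for 3, and the same share over all tested genes is not given here. The summed level of the list was 529 and 741 in WT, 390 and 505 in KO and 318 to 752 in the knock-in lines, so KO lay inside the knock-in range, with both Q92 libraries (318 and 368) lower still. Rhox5, an X-linked homeobox gene, stood at 40.0 and 31.5 in WT and at 17.2 and 14.8 in KO (difference -1.10, SE 0.14, adjusted p 0.0514). Tuba3a stood at 79.8 and 131 in WT and at 30.5 and 44.4 in KO (difference -1.45, adjusted p 0.0728). Tuba3a and Tuba3b are near-identical copies, so how their reads were divided is uncertain. Mael, of the piRNA pathway, differed by -0.79 and Hormad1, of the meiotic chromosome axis, by -0.65, while Ddx4, the germ cell RNA helicase Vasa, differed by 0.64, and none of these 3 passed (adjusted p 0.211 to 0.316).

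**Figure D5:**
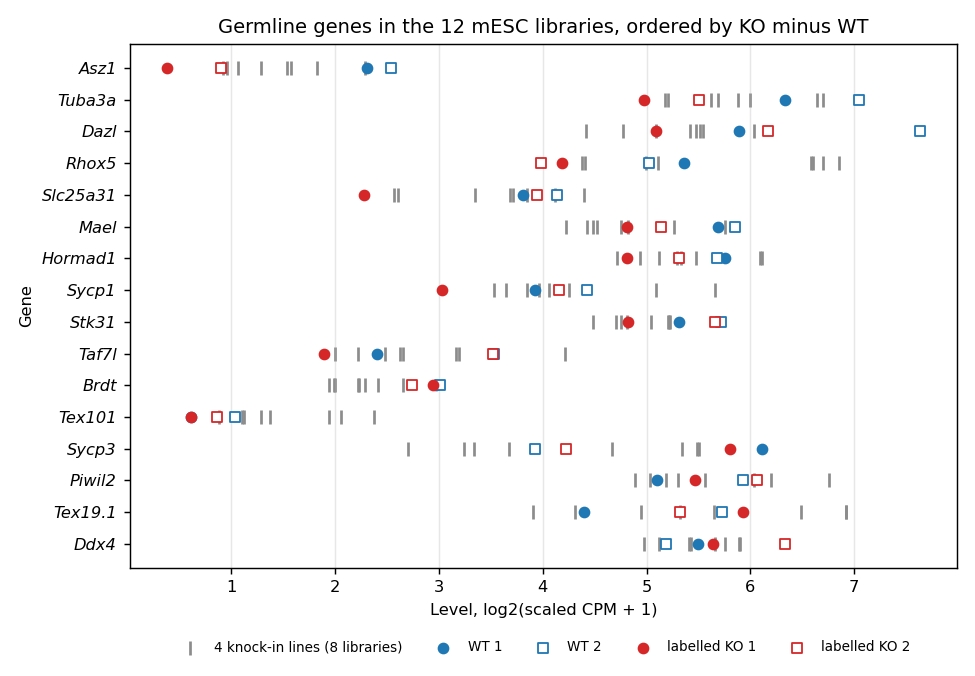
Levels of the 16 listed germline genes in the 12 mESC libraries on the log2(scaled CPM + 1) axis, ordered by the KO minus WT difference; red is KO, blue WT and grey ticks the knock-in libraries. From Asz1 to Hormad1, the first 7 genes, each KO library lies below the WT library of the same replicate number, and Ddx4 at the bottom is higher in KO.

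Promoter sequence was read for these genes because many germline promoters bind the repressor E2F6 (letters TCCCGC) or hold an E-box (CACGTG). The motifs and the 4 promoters shown were chosen with the values known: Asz1 and Tuba3b as called genes, Tuba3a as the near-identical copy, and Mael because it holds both motifs. Each run is the RefSeq promoter on GRCm38.p6, 250 bases before to 50 after the start, 5′ to 3′ on the gene's strand, in lower case with either motif on either strand in capitals. Asz1 is at chr6:18109012-18109311 (minus), Tuba3b at chr6:145615713-145616012 (plus), Tuba3a at chr6:125286032-125286331 (minus) and Mael at chr1:166238695-166238994 (minus).
Asz1: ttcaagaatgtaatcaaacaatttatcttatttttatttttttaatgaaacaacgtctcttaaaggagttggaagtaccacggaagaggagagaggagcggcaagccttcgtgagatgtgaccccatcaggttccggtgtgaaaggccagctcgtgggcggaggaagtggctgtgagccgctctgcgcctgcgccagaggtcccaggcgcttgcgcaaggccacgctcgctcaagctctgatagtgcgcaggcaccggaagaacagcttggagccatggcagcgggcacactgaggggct
Tuba3b: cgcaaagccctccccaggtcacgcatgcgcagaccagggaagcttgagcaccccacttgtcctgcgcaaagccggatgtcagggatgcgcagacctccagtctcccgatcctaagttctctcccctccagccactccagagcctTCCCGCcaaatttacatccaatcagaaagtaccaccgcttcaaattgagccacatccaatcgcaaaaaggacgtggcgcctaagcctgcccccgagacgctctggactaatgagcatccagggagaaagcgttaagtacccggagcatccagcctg
Tuba3a: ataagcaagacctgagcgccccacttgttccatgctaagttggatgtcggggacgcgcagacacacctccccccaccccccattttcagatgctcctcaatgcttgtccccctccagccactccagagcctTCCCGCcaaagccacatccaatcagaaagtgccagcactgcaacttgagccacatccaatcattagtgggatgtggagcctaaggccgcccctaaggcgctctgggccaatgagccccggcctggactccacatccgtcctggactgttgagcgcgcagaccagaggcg
Mael: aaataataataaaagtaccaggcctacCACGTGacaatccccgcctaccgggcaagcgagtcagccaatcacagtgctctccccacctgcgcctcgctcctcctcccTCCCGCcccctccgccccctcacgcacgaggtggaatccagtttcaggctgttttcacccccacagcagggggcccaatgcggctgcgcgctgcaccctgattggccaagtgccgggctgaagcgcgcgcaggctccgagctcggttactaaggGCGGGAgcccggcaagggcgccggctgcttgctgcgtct
Asz1 holds neither motif and 17 CpG. Tuba3b and Tuba3a each hold TCCCGC once, with 16 and 12 CpG, and Mael holds it 2 times and CACGTG once, with 24 CpG. Of 15 list genes with a promoter in the table, 8 (53.3%) held TCCCGC, 9 (60.0%) CACGTG and 6 (40.0%) both, with a median of 21 CpG. Over all 32851 promoters the shares were 20.0%, 7.15% and 1.99%, with a median of 7 CpG. The units differ: the list has the first start per gene, and all promoters include every start of 27025 genes. These letters are a description, and no binding or methylation was measured here.

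The DNA methyltransferase Dnmt3b, which writes methylation in the early embryo, stood at 296 and 295 in WT and at 161 and 200 in KO. Its difference was -0.71 (SE 0.14, adjusted p 0.128), and both KO values were below all knock-in values (242 to 527). Of the 10 genes of DNA methylation, none was called. Uhrf1, which recruits Dnmt1, differed by -0.34, Dnmt1 by 0.13 and Tet1, an enzyme that removes methylation, by 0.37. Imprinted genes moved in both directions, none of 21 was called, and the median was 0.15. Mest, expressed from the paternal copy, was at 60.2 and 86.9 in WT and 36.3 and 49.8 in KO (difference -0.75, adjusted p 0.0826), both below the knock-in lines at 107 to 282. Genes of PRC2, the complex that methylates histone H3 on silenced genes, had a median of -0.10 with none of 11 called, and Phf19 and Mtf2, its targeting subunits, differed by -0.52 and -0.45.

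No gene of the pluripotency lists passed the test. Of 15 naive pluripotency genes, 6 were higher at an unadjusted p under 0.05 and none lower, against 6.99% and 4.58% of all tested genes, with a median of 0.27. These were Klf4 (difference 1.14), Socs3 (2.39), Stat3 (0.49), Nr5a2 (0.49), Tfcp2l1 (0.49) and Zfp42 (0.27), with adjusted p-values of 0.211 to 0.415. Stat3 carries the signal of leukaemia inhibitory factor and Socs3 is its target and inhibitor. Socs3 stood at 0.989 and 29.2 in WT and at 12.0 and 127 in KO, so that replicates differed more than groups. Tfcp2l1 and Nr5a2 lie on chromosome 1 and Zfp42 on chromosome 8. Relative to its chromosome Zfp42 differed by -0.02, and relative to its window Tfcp2l1 differed by -0.11. Chromosome 8 and that window were both singled out above for a high median, which these steps remove. The smaller differences are therefore no separate result.

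Of 11 general pluripotency genes, 8 were below 0, with a median of -0.18. Dppa5a, an RNA-binding protein of stem cells, stood at 1343 and 880 in WT and at 764 and 601 in KO, a difference of -0.68 (SE 0.11, adjusted p 0.0835). Genes of 2-cell-like cells had a median of -0.51, with 9 of 10 below 0 and none called. Zscan4f, which marks that state, stood at 34.9 and 35.9 in WT and at 19.4 and 23.1 in KO (adjusted p 0.252), and its family of near-identical copies makes its reads uncertain. The primed epiblast list had a median of -0.02, with none of 11 called.

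No gene of the later lineage lists passed the test. Among 12 mesendoderm and early lineage genes the median was -0.07, and the endoderm factors Sox17, Gata6 and Gata4 differed by -0.68, -0.78 and -0.76 (adjusted p 0.258 to 0.389). Sox17 stood at 1.81 and 1.20 in WT and at 0.467 and 0.636 in KO. Of the 7 trophoblast genes, 6 were below 0, with a median of -0.18, among them Ascl2 (-0.32) and the keratins Krt18 (-0.31) and Krt8 (-0.30). The remaining gene, the factor Tfap2c, stood at 14.7 and 18.4 in WT and at 30.2 and 34.7 in KO (difference 0.93, adjusted p 0.230). All 11 neural progenitor genes were above 0, with a median of 0.37, but none had an unadjusted p under 0.05, and their summed level was 104 and 105 in WT, 211 in KO 1 and 110 in KO 2. The knock-in libraries ranged from 175 to 424, so KO 1 lay inside their range and both WT libraries and KO 2 below it. The 14 neuronal genes had a median of -0.16, with Gap43, a growth cone protein, higher by 0.73 (adjusted p 0.375).

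Known partners of huntingtin showed no common direction. Of 27 tested, none was called, 3 were higher and 1 lower at an unadjusted p under 0.05, and the median was 0.04. These shares are near those of all tested genes (6.99% and 4.58%). Pcm1, a centrosome protein bound through Hap1, stood at 294 and 220 in WT and at 537 and 366 in KO (difference 0.80, SE 0.16, adjusted p 0.151), and lies on chromosome 8. Grb2, an adaptor of growth factor receptors, stood at 44.6 and 71.0 in WT and at 20.7 and 28.2 in KO (difference -1.19, adjusted p 0.205). Klc1, a kinesin light chain, differed by 0.39 and the acetyltransferase Crebbp by 0.83. Genes of dynein, dynactin and kinesin-1, which huntingtin links to vesicles, had a median of 0.02 over 19. The heavy chain Dync1h1 differed by 0.37 and Dctn6, on chromosome 8, by 0.51.

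REST, a repressor of neuronal genes that cytoplasmic huntingtin binds, was covered by 2 lists. The 10 genes of its complex had a median of 0.06 and its 14 tested targets 0.04, with no gene of either at an unadjusted p under 0.05. Autophagy, in which huntingtin acts as a scaffold, had a median of 0.17 over 24 genes with none called. Lamp1, a lysosome membrane protein on chromosome 8, stood at 348 and 386 in WT and at 526 and 624 in KO (difference 0.64, adjusted p 0.134). It differed by -0.18 relative to its window, which was among those chosen above for a high median. Gabarapl2, an autophagosome protein also on chromosome 8, differed by -1.34 (adjusted p 0.296). Medians of the lists for endoplasmic reticulum stress (18 genes), p53 targets (16), glycolysis and hypoxia (16), cholesterol synthesis (20), splicing regulators (45) and immediate early and heat shock genes (9) lay between -0.08 and 0.06, and no gene of these was called.

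To ask whether the KO effect differed between cell types, the KO minus WT difference in mESC was set against that in NPC in a single fit. Of 12321 genes tested in both, 36 (0.292%) differed at an adjusted p under 0.05 (limma). That count was 882 without WT 2 of NPC, 59 without KO 2 of mESC, and 10, 22 and 20 without KO 1, WT 1 and WT 2 of mESC. Among the 11 called mESC genes that could be tested, 2 differed. Klhl13 stood at 278 and 376 in NPC WT and at 281 and 442 in NPC KO, a difference of 0.12 there against -2.41 in mESC. Zfp689 stood at 13.2 and 12.1 in NPC WT and at 4.45 and 10.8 in NPC KO, a difference of -0.76 against 1.51 in mESC. The other 9 did not pass, among them B3glct with a difference of 0.12 (SE 0.27, adjusted p 0.913) between cell types. Mmgt1 stood at 135 and 160 in NPC WT but at 11.5 and 170 in NPC KO, so its difference of 4.59 (SE 1.37, adjusted p 0.233) rested on libraries that disagreed.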

How the data were processed

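RNA was measured by paired-end sequencing of total RNA in 12 mESC and 12 NPC libraries. The authors deposited 1 table per cell type of CPM, a scaled signal that is not plain CPM since its columns do not sum to a common total. Each value was a whole multiple of the worth of 1 read (100% of values, tolerance 0.01 reads), so the read counts behind the deposited values could be recovered, and their TMM factors matched the columns' scaling. The submitters' processing notes name CASAVA 1.8, STAR and the build GRCm38.p6; how reads were counted, and whether by strand, is not given in the sources used here. Identifiers were matched to GENCODE M21 (99.94%).

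The main test was limma 3.58.1 in R 4.3.3 on log2(value + 1) with a variance trend and the means of the 6 mESC genotypes, for genes with a value of at least 1 in at least 2 of the 12 mESC libraries (13916 tested, 3585 left out), with the replicate number as a block (5 residual degrees of freedom). Tests were two-sided with Benjamini-Hochberg adjustment. The difference between cell types was fitted over all 24 libraries, with the block within mESC only. edgeR 4.0.16 (quasi-likelihood) was run on the recovered reads as an alternative. The code was tested on simulated data.

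The numbers were taken to pair the mESC libraries because the difference between replicates 1 and 2 correlated across genes in all 15 pairs of genotypes (0.25 to 0.55; KO with WT 0.54), and the first principal component (31.0%) separated the numbers. Genes named are Htt, all called genes, genes with the largest uncalled differences at an unadjusted p under 0.01 with groups apart, up to 24 in all with the called genes, up to 4 genes of smallest p per list, all subunits of a complex with a called gene, and 2 genes of smallest p for the difference between cell types. Others (Pou5f1, Nanog, Col1a2, Stat3, Nr5a2, Hormad1 and Ddx4) were named after their values were seen. The comparison and the 26 gene lists were chosen with earlier results of these data known. Counting error and 2 libraries per group limit the precision.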

Additional observations from a re-analysis of the deposited data

Results flagged for a closer look

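A test of the difference itself (limma, 24 libraries, adjusted over 12321 genes) found 36 genes whose KO minus WT difference was not the same in mESC and NPC, and 0 with only the KO and WT libraries (551 at an unadjusted p under 0.05). The 4 given here are the 2 called mESC genes among them and the 2 genes of smallest p otherwise. Klhl13 fell in mESC and stood at 281 and 442 in NPC KO against 278 and 376 in NPC WT, and the difference between cell types was -2.54 (SE 0.29, adjusted p 0.00118). Zfp689 rose in mESC, with both KO values above both WT values, and was lower in both NPC KO libraries, with a difference of 2.26 (SE 0.36, adjusted p 0.0154).

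Ptprk, a receptor tyrosine phosphatase, had the smallest p-value. It stood at 20.5 and 21.8 in NPC WT and at 4.09 and 2.86 in NPC KO, while in mESC it was 85.4 and 78.7 in WT and 108 and 93.9 in KO. The difference was 2.61 (SE 0.20, adjusted p 3.68e-05). Gpat2, a mitochondrial acyltransferase with high expression in testis, stood at 15.0 and 16.1 in NPC WT and at 2.44 and 2.22 in NPC KO, and at 57.7 and 34.2 in mESC WT and 52.3 and 31.0 in mESC KO. Its difference was 2.18 (SE 0.23, adjusted p 0.00107). For these 2 genes the KO difference lay in NPC.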

How the results depend on the processing

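The number of genes called depended on the design. Without the replicate block, limma called 2 genes in place of 16 (2 higher, 0 lower) and edgeR also 2 (2 higher, 0 lower); both calls were among the 16. With only the KO and WT libraries, limma called 0 genes with the block (0 higher, 0 lower; 1327 at an unadjusted p under 0.05) and 0 without it (320). edgeR with the block called 19, which included all 16. Calls were 7 with no filter on low values (2 higher), 24 with a mean of at least 5 (15 higher), 8 with median-of-ratios scaling (3 higher), 9 with no variance trend (3 higher), 12 with quantile normalization (5 higher), 8 with chromosome-centred values (3 higher) and 7 with values centred in windows (3 higher, 4 lower). Leaving out 1 library gave 5 to 21 calls, 2 to 9 of them higher and 2 to 15 lower. For the difference between cell types, 5 genes were called with no replicate block, 14 with a mean of at least 5, 0 with only the KO and WT libraries (551 at an unadjusted p under 0.05), and 10 to 882 with 1 library left out. The cause of these changes was not tested. Directions turned for Htt (0.11 without KO 2; -0.67 to 0.11 with 1 library left out), Tfcp2l1 (-0.11 relative to its window), Zfp42 (-0.023 relative to its chromosome, -0.29 to its window) and Lamp1 (-0.18 relative to its window), and with 1 library left out for Emc6 (-0.014 to 2.80), Nanog (-0.18 to 0.12) and Pou5f1 (-0.43 to 0.090). No called gene changed direction under any alternative.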
